A study of Mus musculus with 15 samples.

Results

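The genes described here are 36 genes of the cellular response to low oxygen, chosen by name from the 18804 genes of the count table and kept apart from the enzymes of glycolysis. They are 4 subunits of the hypoxia-inducible factors (HIFs), 5 regulators of those subunits and 27 genes known as HIF targets. All 36 passed the filter on low counts, and 14293 of all genes did. A HIF is a pair of proteins, an α subunit whose stability follows oxygen and a β subunit that is always present. While oxygen is plentiful, prolyl hydroxylases mark the α subunit for destruction by the von Hippel-Lindau ubiquitin ligase, and when oxygen falls the α subunit persists, enters the nucleus with its partner and switches on genes for blood vessel growth, glycolysis, pH control, mitophagy and collagen maturation. In expanding fat depots this response has been linked to inflammation and fibrosis. The α subunits are regulated mainly as proteins, and only RNA was measured in these samples.

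RNA was sequenced from adipocytes made by differentiating mesenchymal stem cells (MSCs), which the study took from the ears of C57BL/6J mice. There were 3 groups of 5 libraries, and all cells were harvested on day 16 after differentiation was begun. Day 0 cells stayed at 37°C, day 1 cells were moved to 31°C on day 15, and day 12 cells were moved on day 4. All groups received the same inducers, named in the labels as methylisobutylxanthine, dexamethasone, insulin and troglitazone, and then medium with 10% FBS. No genotype differed between groups. The day 12 cells were moved early in differentiation and the day 1 cells late, so the time spent at 31°C and the stage at the move cannot be told apart. Whether a group's libraries are separate animals or cultures is not in the labels, so p-values measure the spread between these libraries, which may be technical.

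Library totals ran from 64648178 to 133270973 counts, and expression is in CPM (counts per 1e6 counts of a library, with its TMM factor applied). The labelled cell type was checked against markers. Adipocyte markers were abundant in every group, their sum over 12 genes running from 5473 to 6120 CPM at day 0, from 6266 to 6949 CPM at day 1 and from 5416 to 6064 CPM at day 12. At day 12, 4 of these 12 were lower and 3 higher. Among the lower, Adipoq fell from a mean of 1095 to 464 CPM. Cidec had means of 177, 28.85 and 59.0 CPM at days 0, 1 and 12. The higher were Fabp4, from 828 to 1617 CPM, Pnpla2, from 258 to 430 CPM, and the scarce Retn, from 0.27 to 0.94 CPM. Genes of other cells were also present. The sum over 10 stromal progenitor markers ran from 12600 to 12910 CPM, from 11170 to 11460 CPM and from 9295 to 9728 CPM at days 0, 1 and 12, and that over 6 chondrocyte markers from 3681 to 4416 CPM, from 3926 to 4081 CPM and from 1153 to 1250 CPM. The chondrocyte sum was mostly Comp, whose mean was 3717 CPM at day 0 and 919 CPM at day 12, while Col2a1 had means of 149 and 182 CPM. Proliferation markers summed to between 105 and 119.5 CPM at day 0 and between 224 and 258 CPM at day 12. Macrophage and leukocyte markers summed to between 26.6 and 48.7 CPM over all libraries, endothelial markers to at most 1.53 CPM and keratinocyte markers to at most 0.256 CPM. Mesothelial markers ran from 2.06 to 2.25 CPM at day 0 and from 23.4 to 38.3 CPM at day 12, nearly all of it Msln. In bulk RNA, fewer cells of a type and less RNA per cell cannot be told apart, and the part of these shifts in the results below was not tested.

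HIFs bind DNA at the hypoxia response element, whose core is ACGTG or GCGTG. Both letter strings were searched on both strands in promoter windows from RefSeq (GRCm38.p6, 250 bases before to 50 after the start site), which matched 29 of the 36 genes (all but Epas1, Stc1, Bnip3l, Plod2, Bhlhe40, Zfp395 and Ndrg1). At least 1 core lay in a window of 20 of the 21 targets that had one, or 95.2%, against 46.7% of all 27025 genes with a window and 65.6% of the 10089 such genes that were tested here. ACGTG, the form most often found in bound elements, lay in windows of 15 targets (71.4%) against 21.8% of all genes and 28.4% of the tested ones. A CACGTG letter string holds ACGTG on both strands and was counted as 2 cores. It lay in windows of 5 of the 21 targets (23.8%), against 8.09% of all genes and 11.4% of the tested ones. The targets were picked as known HIF targets, so a high share with cores was likely in advance and is no independent result. A match is a description of letters and not of binding, and binding was not measured. The windows below, written 5′ to 3′ with cores in capitals, are those of the target with the largest decrease at day 12 (Ero1l, RefSeq symbol Ero1a, chr14:45318523-45318822, - strand), the regulator with the largest decrease (Egln3, chr12:54203825-54204124, - strand), a collagen hydroxylase subunit (P4ha2, chr11:54100674-54100973, + strand), a target that was not called at either time in spite of 6 cores (Wsb1, chr11:79254646-79254945, - strand) and the target that increased (Car12, chr9:66713436-66713735, + strand).
Ero1l: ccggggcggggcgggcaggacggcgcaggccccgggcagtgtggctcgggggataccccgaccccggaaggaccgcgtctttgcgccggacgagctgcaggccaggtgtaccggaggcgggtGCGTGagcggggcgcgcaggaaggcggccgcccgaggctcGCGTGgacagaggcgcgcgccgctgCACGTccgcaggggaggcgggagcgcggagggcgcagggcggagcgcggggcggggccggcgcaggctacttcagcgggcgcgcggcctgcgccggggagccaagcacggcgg
Egln3: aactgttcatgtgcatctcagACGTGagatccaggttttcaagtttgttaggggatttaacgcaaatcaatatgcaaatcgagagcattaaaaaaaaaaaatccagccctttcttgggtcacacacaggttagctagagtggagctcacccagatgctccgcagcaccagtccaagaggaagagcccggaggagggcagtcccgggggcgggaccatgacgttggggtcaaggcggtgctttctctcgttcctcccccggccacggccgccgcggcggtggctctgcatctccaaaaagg
P4ha2: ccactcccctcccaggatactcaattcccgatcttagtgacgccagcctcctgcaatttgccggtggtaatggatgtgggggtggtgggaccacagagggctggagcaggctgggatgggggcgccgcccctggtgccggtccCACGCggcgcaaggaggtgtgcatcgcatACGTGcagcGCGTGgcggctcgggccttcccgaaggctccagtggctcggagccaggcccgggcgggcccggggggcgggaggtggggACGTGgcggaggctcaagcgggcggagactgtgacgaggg
Wsb1: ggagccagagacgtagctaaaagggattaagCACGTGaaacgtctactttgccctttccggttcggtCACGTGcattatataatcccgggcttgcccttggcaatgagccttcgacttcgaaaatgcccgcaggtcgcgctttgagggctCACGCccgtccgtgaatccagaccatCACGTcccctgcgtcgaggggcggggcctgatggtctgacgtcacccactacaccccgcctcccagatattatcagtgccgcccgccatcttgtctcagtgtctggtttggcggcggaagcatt
Car12: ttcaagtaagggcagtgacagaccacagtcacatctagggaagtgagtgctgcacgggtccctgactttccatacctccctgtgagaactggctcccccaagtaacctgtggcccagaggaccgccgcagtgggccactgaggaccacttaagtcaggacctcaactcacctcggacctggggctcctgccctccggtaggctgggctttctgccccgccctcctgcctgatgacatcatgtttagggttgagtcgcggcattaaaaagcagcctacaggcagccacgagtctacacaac

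Ero1l had 3 cores, P4ha2 had 4 and Egln3 had 1, and no core lay in the Car12 window. The number of cores and the change at 31°C were not in step for every gene. Of the 15 targets with ACGTG in a window, 13 were called lower at day 12, with a median log2 fold change of -1.38. Of the 6 with a window but without ACGTG, 4 were, with a median of -0.79. The share over all genes tested was 16.2%. It was not taken apart for genes with and without ACGTG, so the contrast between the 15 and the 6 has no baseline. Vegfa and Mxi1 had no core in the first window and count through later RefSeq starts, the second of which had 2 cores for Vegfa and 1 for Mxi1. Ak4 had ACGTG in its window 4 alone.

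**Figure D1:**
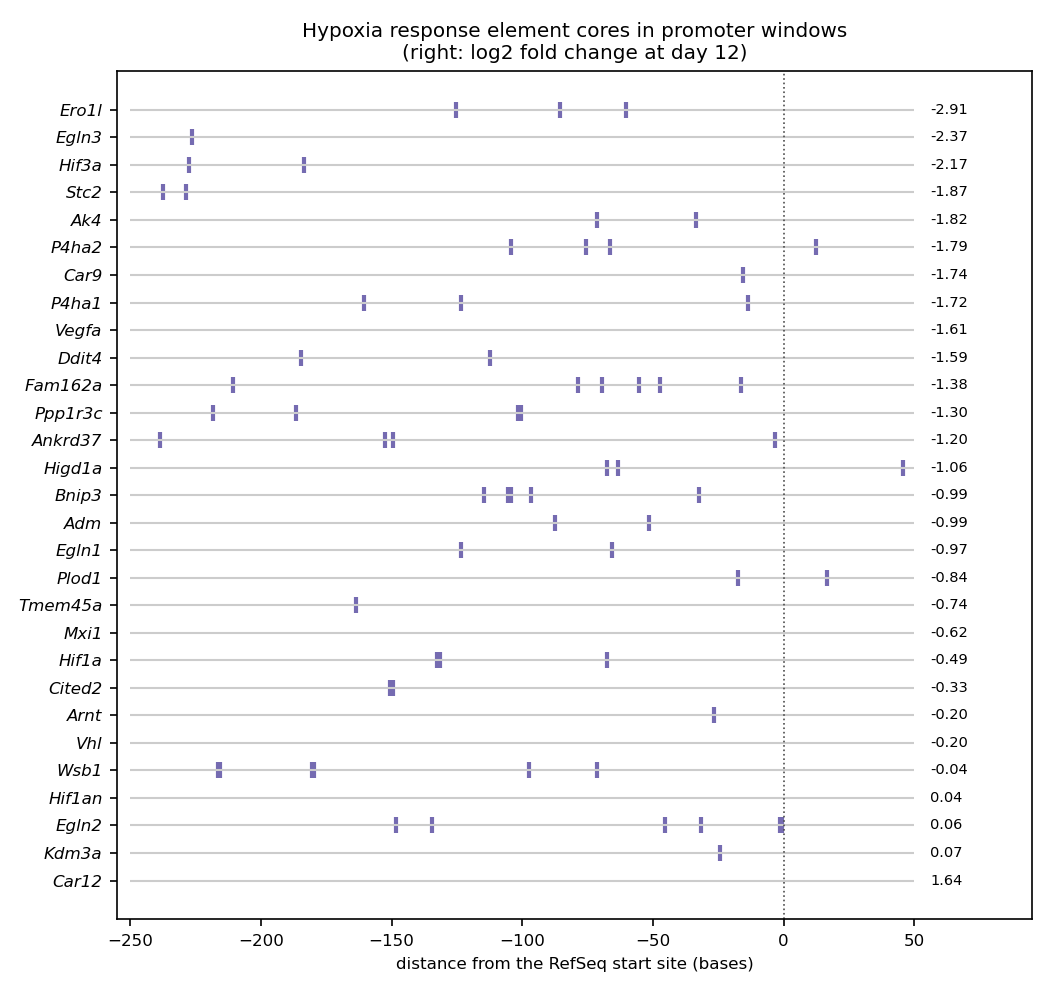
Positions of ACGTG and GCGTG cores (vertical marks) on either strand in the first RefSeq promoter window of 29 genes, by distance from the start site in bases, with genes ordered by log2 fold change at day 12 (printed at the right). Ero1l at the top had 3 cores, Car12 at the bottom had none, and of the 3 genes with 6 cores Fam162a was lower at day 12 (-1.38), while Wsb1 and Egln2 had changes near 0.

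The comparisons with day 0 ask which of these genes respond to cooling within a day and which only after 12 days. A gene was called at an adjusted p under 0.05 over all genes tested, by edgeR's quasi-likelihood test, and a fold change over 1.5. At day 1, 14 of the 36 genes were lower, where 13.4% of all genes were, and 0 were higher, where 7.71% of all genes were. By adjusted p alone, 3 of the 36 would be called higher and 26 lower, where 5049 and 5177 of all 14293 genes would be. By an unadjusted p under 0.05 in edgeR 4 of the 36 were higher, and DESeq2 with both limits called 0 higher. At day 12, 26 were lower and 1 was higher, where 16.2% and 13.0% of all genes were. Of the 27 targets, 12 were lower at day 1 and 22 at day 12, and of the 9 subunits and regulators, 2 and 4. The median log2 fold change of the targets was -0.44 at day 1, where that of all genes tested was -0.01, and -1.20 at day 12, where it was 0.01. The 2 comparisons share their day 0 libraries. Since the genes were chosen with earlier results known, their counts beside the shares of all genes describe the set and are no independent test. In what follows, errors of log2 fold changes are SE and errors of levels are SD over 5 libraries.

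Direct comparison of day 12 with day 1 called 17 of the 36 lower and 1 higher, where 8.53% and 10.6% of all genes were. For the targets the median was -0.67, against 0.01 for all genes. This comparison depended on scaling. With libraries scaled to Hprt and Tbp, 6 of the 36 were called lower and 2 higher, where 548 and 4438 of all 14293 genes were. The median of all genes moved to 0.42 and that of the targets to -0.26. At day 12 against day 0 the same scaling put the median of all genes at 0.27 and of the targets at -0.95. There 21 of the 36 were lower, and 1528 of all genes. Scaling to total counts put the 2 medians at 0.21 and -1.01, with 22 of the 36 lower and 1668 of all genes.

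**Figure D2:**
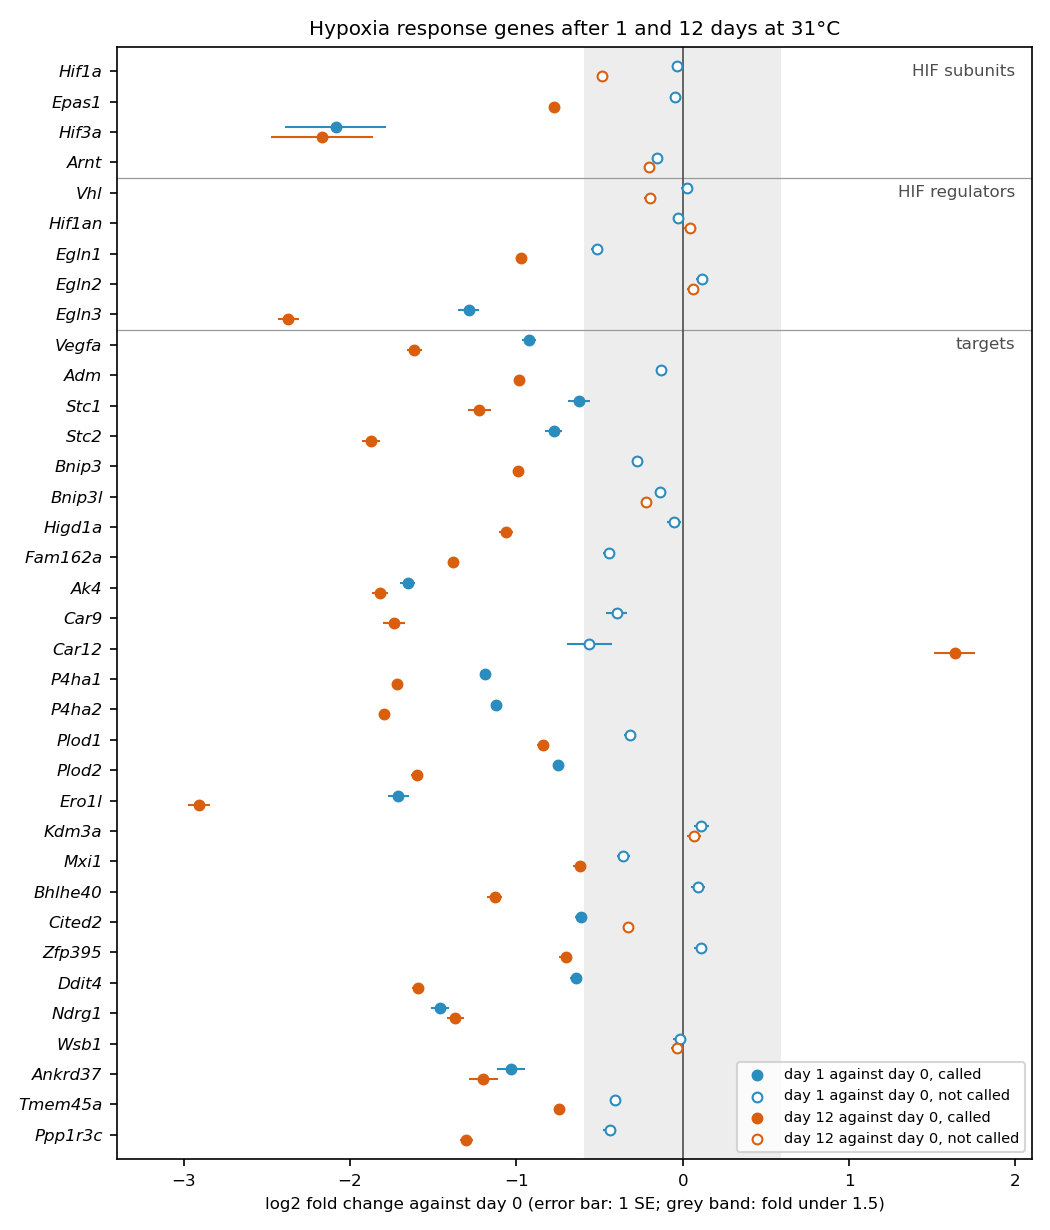
Log2 fold change of the 36 genes at day 1 (blue) and day 12 (orange) against day 0, with bars of 1 SE and filled points for genes called at adjusted p under 0.05 and fold over 1.5. Of the 27 targets, 12 were lower at day 1 and 22 at day 12, and Car12 is the sole filled point to the right of 0.

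Among the subunits, the RNA for the 2 main α subunits differed from day 0 by less than the threshold at day 1. At day 12 it lay below all libraries of the other groups, past the fold limit for Epas1 alone. Levels of Hif1a (HIF-1α, GRCm38 chr12:73901375-73947530, + strand) were 633, 612, 597, 676 and 672 CPM at day 0, 608, 627, 627, 620.5 and 635 CPM at day 1 and 454, 437, 473, 462 and 453 CPM at day 12. Days 0 and 1 overlapped and all day 12 libraries lay below both. The log2 fold change was -0.03 ± 0.03 (adjusted p = 0.36) at day 1 and -0.49 ± 0.03 (SE, adjusted p = 1.1e-12) at day 12, a difference that passed the p threshold at 1.40-fold, under the fold limit. Levels of Epas1 (HIF-2α, chr17:86753700-86833410, + strand), which is prominent in adipocytes and endothelium, were 138, 133, 138, 139.8 and 138 CPM at day 0, 126, 132, 134, 139.9 and 133 CPM at day 1 and 82.7, 83.7, 81.1, 75.8 and 79.0 CPM at day 12. Again day 12 stood apart, with -0.77 ± 0.03 (SE, adjusted p = 5.6e-17), and the value at day 1 was -0.05 ± 0.03 (adjusted p = 0.17). The day 12 call of Epas1 was lost with other scalings, at -0.58 for total counts and -0.52 for Hprt and Tbp.

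Hif3a (HIF-3α, chr7:17031507-17062427, - strand), whose products can dampen the other HIFs and which is itself a HIF target, was scarce. Its levels were 1.39, 2.08, 2.12, 1.40 and 1.01 CPM at day 0, 0.474, 0.361, 0.174, 0.335 and 0.529 CPM at day 1 and 0.150, 0.240, 0.583, 0.527 and 0.310 CPM at day 12, from between 93 and 216 counts per library at day 0 and between 15 and 54 at the other times. Day 0 lay above all other libraries. It fell by day 1, with -2.09 ± 0.31 (SE, adjusted p = 1.6e-06), and at day 12 the value was -2.17 ± 0.31 (SE, adjusted p = 8.3e-07). Arnt (HIF-1β, chr3:95434388-95497240, + strand), the shared β subunit, had levels that were 112, 110.2, 116, 109.5 and 105 CPM at day 0, 99.4, 103, 100.5, 98.5 and 95.8 CPM at day 1 and 94.0, 97.3, 96.6, 99.5 and 92.4 CPM at day 12. Its log2 fold changes of -0.15 ± 0.03 (SE, adjusted p = 6.5e-05) at day 1 and -0.20 ± 0.03 (SE, adjusted p = 1.1e-06) at day 12 were under the fold limit, and the day 12 value was 0.05 with Hprt and Tbp scaling.

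Of the 5 regulators, 2 of the 3 prolyl hydroxylases were lower at day 12. Both of them, Egln1 and Egln3, are also HIF targets, which makes a feedback loop. Levels of Egln3 (PHD3, chr12:54178981-54203860, - strand) were 501, 453, 589.6, 433 and 449 CPM at day 0, 198, 188, 199, 213 and 196 CPM at day 1 and 86.5, 87.1, 93.3, 102 and 101 CPM at day 12. No groups overlapped. The log2 fold change was -1.29 ± 0.06 (SE, adjusted p = 7.4e-15) at day 1 and -2.37 ± 0.07 (SE, adjusted p = 6.9e-20) at day 12, a 5.17-fold decrease, and -1.08 ± 0.06 (SE, adjusted p = 2.7e-13) between days 1 and 12. Levels of Egln1 (PHD2, chr8:124908587-124949324, - strand), the enzyme that sets HIF-1α stability in most cells, were 209, 204, 228, 199 and 206 CPM at day 0, 145, 143, 148, 148 and 147 CPM at day 1 and 102, 102, 111, 111 and 109 CPM at day 12. The 3 groups were again separate. At day 1 the value of -0.52 ± 0.03 (SE, adjusted p = 1.6e-12) fell short of the fold limit, though it was called with Hprt and Tbp scaling (-0.67), and at day 12 it was -0.97 ± 0.03 (SE, adjusted p = 6.2e-18).

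Egln2 (PHD1), the third of these enzymes, was not called at any time, with means of 52.6 ± 1.80, 57.1 ± 1.53 and 54.9 ± 3.01 CPM (SD, n = 5) and log2 fold changes of 0.12 ± 0.04 and 0.06 ± 0.04. Vhl, the substrate-binding part of the ubiquitin ligase, was at 44.7 ± 1.31, 45.5 ± 1.38 and 38.9 ± 1.78 CPM, with 0.03 ± 0.03 at day 1 and -0.20 ± 0.03 at day 12. Hif1an, the asparagine hydroxylase that blocks coactivator binding, was at 36.5 ± 1.5, 35.9 ± 1.28 and 37.6 ± 1.19 CPM, with -0.03 ± 0.04 and 0.04 ± 0.04. Vhl passed the p threshold at day 12 (adjusted p = 1.5e-05) and Egln2 at day 1 (adjusted p = 0.0055), both under the fold limit. A wider list of HIF regulators, such as coactivators and components of the degradation machinery, had 20 tested genes. Their median log2 fold change at day 12 was 0.24. Of the 20, 2 (10%) were lower and 1 (5%) higher, where 16.2% and 13.0% of all genes were, a difference that was not tested. The lower of them with a mean of at least 1 CPM was Foxo3 at -0.62, a transcription factor that restrains HIF activity, and the higher one was Cops5 at 0.76, a subunit of the COP9 signalosome. The Foxo3 call was lost with total counts at -0.43 and with Hprt and Tbp at -0.37.

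**Figure D3:**
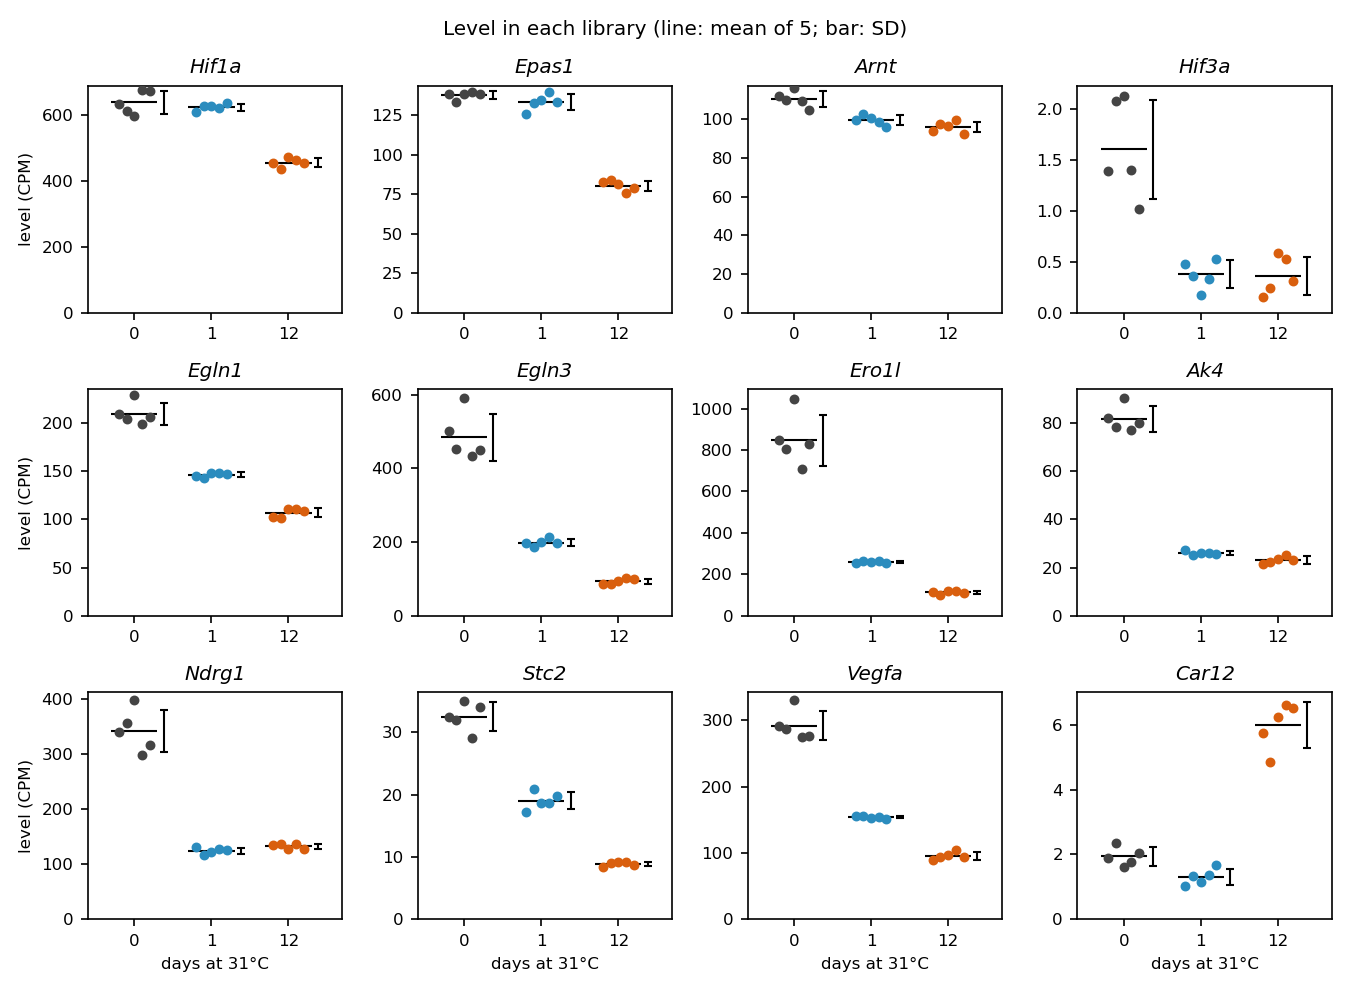
Level in CPM of 12 of the genes in each of the 15 libraries (points), with the mean of 5 (line) and SD (bar), on axes that start at 0. Egln3, Ero1l and Stc2 step down at both times, as does Vegfa, whose second step was not called with total counts or with Hprt and Tbp scaling, Ak4 and Ndrg1 step down at day 1, the day 12 libraries of Hif1a and Epas1 lie below the other groups, and Car12 is higher at day 12.

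The 4 secreted signals were all lower at day 12, and 3 of them at day 1, where 16.2% and 13.4% of all genes were. Levels of Stc2 (stanniocalcin-2, chr11:31357307-31370074, - strand), a secreted glycoprotein that restrains growth factor release, were 32.5, 32.0, 35.1, 29.1 and 34.0 CPM at day 0, 17.2, 20.9, 18.6, 18.6 and 19.7 CPM at day 1 and 8.37, 9.01, 9.19, 9.17 and 8.70 CPM at day 12. None of the groups overlapped. The log2 fold change was -0.78 ± 0.05 (SE, adjusted p = 2e-12) at day 1 and -1.87 ± 0.05 (SE, adjusted p = 1.6e-19) at day 12. Vegfa, the main growth factor for blood vessels, went from a mean of 292 ± 22.4 CPM at day 0 to 154 ± 1.90 and 95.5 ± 5.70 CPM (SD, n = 5), with -0.92 ± 0.04 (SE, adjusted p = 1.7e-15) and -1.61 ± 0.04 (SE, adjusted p = 3.3e-20). Its 5 day 1 libraries lay between 151 and 156 CPM, below the lowest day 0 library at 275 CPM. Stc1 had -0.62 ± 0.07 at day 1, a call that was lost without day 0 replicate 5 (-0.56) or day 1 replicate 1 (-0.57), and -1.22 ± 0.07 (SE, adjusted p = 3.2e-14) at day 12. Adm, which encodes the vasodilator adrenomedullin, at day 1 had -0.13 ± 0.03 under the fold limit, and was lower at day 12, with -0.99 ± 0.03 (SE, adjusted p = 3.5e-20).

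Of the 5 genes of mitochondria and mitophagy, 1 was lower at day 1 and 4 at day 12, where 13.4% and 16.2% of all genes were. The 1 of 5 at day 1 is near that share. Levels of Ak4 (chr4:101419277-101466995, + strand), an adenylate kinase of the mitochondrial matrix, were 82.3, 78.5, 90.6, 77.1 and 79.8 CPM at day 0, 27.2, 25.1, 25.9, 26.1 and 25.5 CPM at day 1 and 21.4, 22.2, 23.7, 25.4 and 23.1 CPM at day 12. Day 0 stood far above the rest, and days 1 and 12 overlapped. The values were -1.65 ± 0.05 (SE, adjusted p = 1.5e-19) at day 1 and -1.82 ± 0.05 (SE, adjusted p = 9.9e-21) at day 12, with -0.17 ± 0.05 between them, which was not called. Bnip3 and Bnip3l encode related mitophagy receptors, and 1 of them was called. Bnip3 was at 584 ± 23.3, 483 ± 16.2 and 294 ± 12.4 CPM, with -0.99 ± 0.03 (SE, adjusted p = 2e-18) at day 12, whereas Bnip3l was at 239 ± 1.99, 218 ± 9.29 and 206 ± 5.72 CPM, with -0.22 ± 0.03 (adjusted p = 2.4e-07), under the fold limit and at 0.04 with Hprt and Tbp scaling. Higd1a, a small inner membrane protein, had -0.05 ± 0.04 (adjusted p = 0.26) at day 1 and -1.06 ± 0.04 (SE, adjusted p = 9.6e-17) at day 12. Fam162a, a mitochondrial protein linked to cell death in hypoxia, had -0.44 ± 0.03 and -1.38 ± 0.03, of which the second was called, and the first also with Hprt and Tbp scaling (-0.60). Strand was not stated for the counting, and Bnip3 shares 22.3% of its exon bases with a gene on the opposite strand, Higd1a 22.5% and Fam162a 19.8%, so reads of the partners cannot be told apart.

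The 2 carbonic anhydrases, membrane enzymes that convert carbon dioxide to bicarbonate outside the cell, went opposite ways at day 12. Car9, a classic HIF-1 marker, was at 559.6 ± 29.9, 425 ± 19.7 and 168 ± 24.1 CPM, with -0.40 ± 0.06 at day 1, under the fold limit, and -1.74 ± 0.07 (SE, adjusted p = 2.7e-17) at day 12. Levels of Car12 (chr9:66713686-66766845, + strand) were 1.87, 2.36, 1.61, 1.77 and 2.05 CPM at day 0, 1.02, 1.32, 1.13, 1.35 and 1.69 CPM at day 1 and 5.74, 4.87, 6.25, 6.61 and 6.52 CPM at day 12. All day 12 libraries lay above every other library. It was higher at day 12, with 1.64 ± 0.12 (SE, adjusted p = 1.2e-11), and 2.19 ± 0.13 (SE, adjusted p = 2.9e-13) against day 1. At day 1 its value was -0.56 ± 0.14 (SE, adjusted p = 0.00075), just under the fold limit, and it was called lower without day 0 replicate 3 (-0.62), without day 0 replicate 4 (-0.59) or without day 1 replicate 5 (-0.68). Within the 11 libraries of the lower run of library numbers it was also called lower, at -0.72, as it was with Hprt and Tbp scaling (-0.71). Even at day 12 Car12 remained the second lowest of the 36 genes per length, at 0.790 CPM per kb against 72.9 for Car9.

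The 5 genes of collagen maturation and disulfide formation were all lower at day 12, and 4 of them at day 1. The shares of all genes were 16.2% and 13.4%. Levels of Ero1l (chr14:45283087-45318771, - strand), the oxidase that passes electrons from protein disulfide isomerase to oxygen in the endoplasmic reticulum, were 847, 803, 1046, 709 and 828 CPM at day 0, 254, 264, 260.5, 263 and 253 CPM at day 1 and 113, 103, 118, 119 and 112 CPM at day 12. The groups were far apart, and day 0 varied most. The log2 fold change was -1.71 ± 0.06 (SE, adjusted p = 4.7e-17) at day 1, -2.91 ± 0.07 (SE, adjusted p = 2e-21) at day 12, a 7.50-fold decrease, and -1.20 ± 0.06 (SE, adjusted p = 4e-14) between days 1 and 12. It had the largest decrease of the 36 genes at day 12. P4ha1 and P4ha2, the catalytic subunits of collagen prolyl 4-hydroxylase, were lower at both times. P4ha1 was at 462 ± 12.0, 203 ± 2.79 and 140.3 ± 6.54 CPM and P4ha2 at 435 ± 18.0, 199.9 ± 5.02 and 126 ± 1.55 CPM, with log2 fold changes of -1.19 ± 0.03 and -1.12 ± 0.03 at day 1 and of -1.72 ± 0.03 and -1.79 ± 0.03 at day 12. The lysyl hydroxylases Plod1 and Plod2, which prepare collagen for crosslinks, were both lower at day 12, at -0.84 ± 0.04 and -1.60 ± 0.03. At day 1 Plod2 was lower at -0.75 ± 0.03, and Plod1 was at -0.32 ± 0.04, under the limit. The Plod1 call at day 12 was lost with Hprt and Tbp scaling (-0.58).

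Of 5 regulators of transcription and chromatin, 1 was lower at day 1 and 3 at day 12, where 13.4% and 16.2% of all genes were. Again the 1 of 5 at day 1 is near that share. Bhlhe40, a repressor tied to the circadian clock, had 0.09 ± 0.04 (adjusted p = 0.057) at day 1 and then -1.13 ± 0.04 (SE, adjusted p = 3e-17) at day 12. Zfp395, a zinc finger protein, had 0.11 ± 0.04 and -0.70 ± 0.04, and the second was called. Mxi1, which opposes Myc, was lower at day 12, at -0.62 ± 0.04, close to the fold limit. The calls of Zfp395 and Mxi1 at day 12 were lost with total counts (-0.51 and -0.43) and with Hprt and Tbp scaling (-0.45 and -0.36). Cited2, which competes with HIF-1α for coactivators, was the one gene lower at day 1 and not called at day 12. It was at 73.2 ± 2.27, 48.0 ± 1.30 and 58.5 ± 3.43 CPM, with -0.61 ± 0.04 (SE, adjusted p = 2.6e-13) and -0.33 ± 0.04, and the day 1 value lay near the limit. Kdm3a, a histone demethylase, was at 50.1 ± 2.03, 54.2 ± 2.45 and 52.5 ± 3.79 CPM and was not called, with 0.11 ± 0.04 and 0.07 ± 0.04.

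Among the remaining targets, Ndrg1 was lower at both times and not called between them. Levels of Ndrg1 (chr15:66929318-66969640, - strand), a stress and differentiation gene, were 339, 356, 398, 298 and 317 CPM at day 0, 130.4, 117, 122, 127 and 126 CPM at day 1 and 135, 136, 127, 136 and 128 CPM at day 12. Day 0 was well above the others, which overlapped. The log2 fold change was -1.46 ± 0.05 (SE, adjusted p = 2.2e-17) at day 1 and -1.37 ± 0.05 (SE, adjusted p = 2.7e-17) at day 12, with 0.09 ± 0.05 between them. Ddit4, an inhibitor of mTOR signalling, fell at both times, from 138 ± 7.18 to 88.4 ± 3.83 and 45.9 ± 1.08 CPM (SD, n = 5), with -0.64 ± 0.03 (SE, adjusted p = 4.7e-14) and -1.59 ± 0.04 (SE, adjusted p = 1.6e-21). Ankrd37, an ankyrin repeat protein, had -1.03 ± 0.09 and -1.20 ± 0.09, both called, from a level of 7.42 ± 0.834 CPM at day 0, and 26.4% of its exon bases lie in genes of the opposite strand. Ppp1r3c, which brings protein phosphatase to glycogen, was lower at day 12, with -1.30 ± 0.04 (SE, adjusted p = 3.2e-19), and had -0.44 ± 0.04 at day 1, where it was called with Hprt and Tbp scaling (-0.59). Tmem45a, a membrane protein, had -0.41 ± 0.03 and -0.74 ± 0.03, of which the second was called, though not with total counts (-0.55) or with Hprt and Tbp scaling (-0.48). Wsb1, a ubiquitin ligase adaptor, was at 73.1 ± 3.39, 72.2 ± 3.22 and 71.4 ± 3.08 CPM, with -0.02 ± 0.04 and -0.04 ± 0.04.

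The 36 genes fell into a few patterns of calls. All groups were harvested on the same day, so these patterns do not follow one culture in time. Of 13 that were lower at both times, 8 were also lower at day 12 than at day 1, namely Egln3, Vegfa, Stc1, Stc2, P4ha2, Plod2, Ero1l and Ddit4. The other 5, Hif3a, Ak4, P4ha1, Ndrg1 and Ankrd37, were not called between days 1 and 12, although P4ha1 had -0.53 ± 0.03 (adjusted p = 9.4e-14). With Hprt and Tbp scaling, 5 of the 8 lost the call between days 1 and 12, namely Vegfa (-0.28), Stc1 (-0.19), P4ha2 (-0.26), Plod2 (-0.44) and Ddit4 (-0.54), and the first 3 of these also lost it with total counts (-0.52, -0.43 and -0.50). The Stc1 call between days 1 and 12 was also lost without day 1 replicate 3 (-0.58), 4 (-0.58) or 5 (-0.56), or day 12 replicate 1 (-0.57). It was lost as well with a covariate for the run of library numbers (-0.56) and within the lower run (-0.53). A further 13 were called lower at day 12 and not at day 1. Among them Egln1, Adm, Bnip3, Fam162a, Car9, Plod1, Mxi1, Tmem45a and Ppp1r3c passed the p threshold at day 1, lower but under the fold limit. Of the 13, 9 were also lower at day 12 than at day 1, namely Epas1, Adm, Bnip3, Higd1a, Fam162a, Car9, Bhlhe40, Zfp395 and Ppp1r3c. Of these 9, 6 lost that call with Hprt and Tbp scaling, namely Epas1 (-0.32), Adm (-0.44), Bnip3 (-0.31), Fam162a (-0.53), Zfp395 (-0.40) and Ppp1r3c (-0.45), and Epas1 (-0.55) and Bnip3 (-0.54) also lost it with total counts. The remaining 4, Egln1, Plod1, Mxi1 and Tmem45a, were called against day 0 only, with intermediate levels at day 1. Against day 0, 8 genes were called at neither time, namely Hif1a, Arnt, Vhl, Hif1an, Egln2, Bnip3l, Kdm3a and Wsb1.

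**Figure D4:**
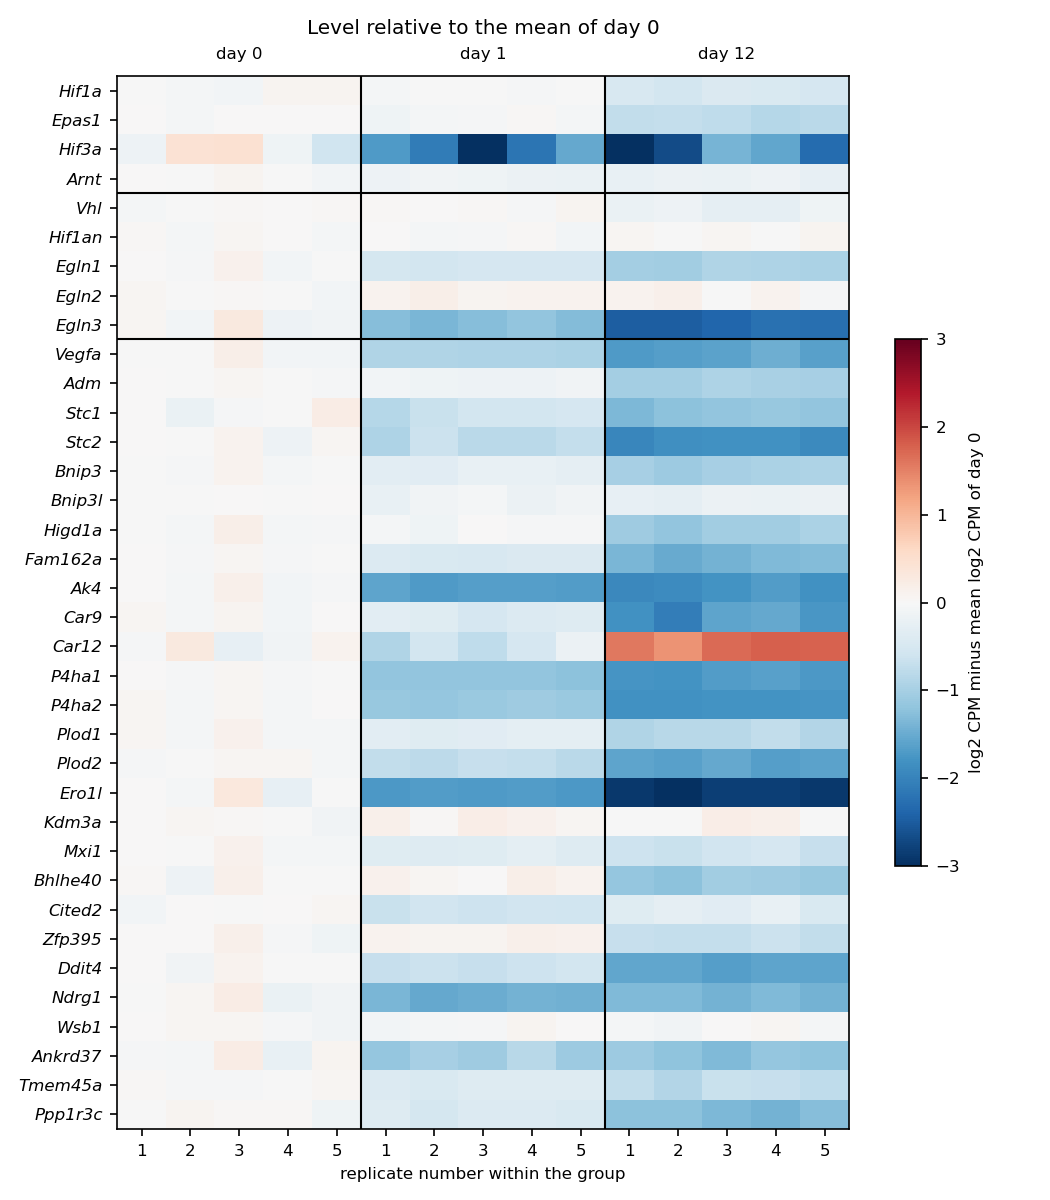
Log2 CPM of the 36 genes (rows, by role) in the 15 libraries (columns, by group), minus the mean log2 CPM of day 0, on a scale from -3 (blue) to 3 (red) with values beyond it drawn in the end colour. Ero1l, Egln3 and Ak4 are blue at day 12, Car12 is red there, and day 0 replicate 3 is faintly red for most targets, of which 19 of 27 were highest in that library of its group.

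Levels per length, from merged GENCODE exons, show how the ranking of these RNAs moved. At day 0 the most abundant were Fam162a at 395 CPM per kb, Bnip3 at 258, Car9 at 243, Egln3 at 182 and Ero1l at 160.2. Hif1a was in place 9 at 108. At day 12 Fam162a and Bnip3 still led, at 152 and 129.8, but Hif1a had place 3 at 77.3, Egln3 had place 9 and Ero1l place 19 at 21.4. Hif3a was the lowest at every time, at 0.239 CPM per kb at day 0.

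Targets deviated together in some libraries of each group. In day 0 replicate 3, 19 of the 27 targets were at their highest of the group and 23 were above the group mean, with a mean deviation of 0.09 on the log2 scale. In day 0 replicate 4, 11 were at their lowest, with a mean deviation of -0.06. Day 1 replicate 4 and day 12 replicate 4 also had 23 targets above the group mean, with mean deviations of 0.03 and 0.06 and with 7 and 12 targets at their highest, and day 12 replicate 2 had 12 at their lowest, with -0.06. Such counts were not made over all genes, so whether they are particular to the targets was not tested. Day 0 replicate 3 also had the highest chondrocyte marker sum of its group, 4416 CPM. Its adipocyte and stromal progenitor marker sums were the lowest of the group, at 5473 and 12600 CPM. The part of these sums in the target levels was not tested. Without that library 15 of the 36 genes were lower at day 1 and 26 at day 12. Library numbers in the titles fall into a lower run of 11 libraries and a higher run of 4. Within the lower run, with 4, 3 and 4 libraries at days 0, 1 and 12, 15 genes were lower at day 1, 26 at day 12, and 16 at day 12 against day 1.

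Other gene lists of the pathway were described in the same way, and the shares of all genes were 13.4% lower and 7.71% higher at day 1 and 16.2% lower and 13.0% higher at day 12. A list of 36 other tested HIF targets had 16 lower and 2 higher at day 12, with a median log2 fold change of -0.50, and 6 lower and 3 higher at day 1, with a median of -0.28. Its largest decreases with a mean of at least 1 CPM were Ndufa4l2 at -2.38, a mitochondrial protein that limits complex I activity, Igfbp3 at -1.79, a carrier of insulin-like growth factors, and Nos2 at -1.66, the inducible nitric oxide synthase. The one increase that met the level was Dusp1 at 0.71, a phosphatase of MAP kinases. Of 20 glycolytic HIF targets, 8 were lower and 1 higher at day 1 and 13 were lower at day 12, with medians of -0.48 and -0.72. The largest decreases at day 12 there were Pfkp at -1.44 and Pfkl at -1.09, both phosphofructokinases, and Slc16a3 at -1.15, a lactate exporter. Genes of the ATF4 stress response, of which Ddit4, Vegfa and Stc2 can also be targets, were a list of 18. At day 1, 3 of the 18 were lower and 4 higher, with a median of 0.11. At day 12, 6 were lower and 3 higher, with a median of -0.22.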

How the data were processed

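RNA was sequenced from 15 libraries of MSC-derived adipocytes, grouped and numbered as labelled. The authors aligned reads to mm10 with TopHat2 2.0.13 and Bowtie2 2.2.1, per the labels, and deposited raw counts per gene from HTSeq, with strand not stated. Their regularized log2 values and DESeq2 comparison tables were not used here. Genes were filtered with filterByExpr (minimum count 10), leaving 14293, libraries were scaled by TMM, and all 15 were fitted together with edgeR 4.0.16 in R 4.3.3, without covariates. The SE was the log2 fold change over the square root of F. A call needed 2 things, the limits the study used for its own comparison of days 12 and 0: a p under 0.05 after Benjamini-Hochberg adjustment, and a change of more than 1.5-fold. The fit was tested on simulated data. The 36 genes, the lists and their roles were chosen with earlier results of these data known. All 36 are named, and values in every library are given for the subunits, the called regulators and the called targets with the 3 largest increases and 3 largest decreases against day 0 at each time. From the other lists, the 3 largest called increases and decreases at day 12 with a mean of at least 1 CPM are named. Gene positions are from GENCODE vM21 (GRCm38, the build mm10), and promoter windows from RefSeq. Of the 4 reference genes planned, Hprt and Tbp were in the table and used. Alternatives changed scaling, filter, tool (DESeq2 1.42.0), fold limit, covariates, and libraries.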

Additional observations from a re-analysis of the deposited data

Results flagged for a closer look

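Among 108 groups of 5 values (36 genes in 3 groups), 3 held a library whose gap to its nearest neighbour exceeded 0.71 of the group's range, Dixon's limit for 5 values, and chance flags about 1 group in 20. Epas1 was lowest in day 0 replicate 2, at 133 CPM against 138 to 140 CPM in the other 4. Higd1a was highest in day 0 replicate 3, at 163 CPM against 138 to 142 CPM, and this is the library in which 19 of the 27 targets were highest of their group. Mxi1 was highest in day 1 replicate 4, at 58.5 CPM against 54.4 to 55.5 CPM.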

How the results depend on the processing

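With adjusted p alone, 3 genes were higher and 26 lower at day 1 (1 and 4 of the subunits and regulators, 2 and 22 of the targets), 7 subunits and regulators were lower at day 12, and at day 12 against day 1 there were 2 higher (2 targets) and 26 lower (5 subunits and regulators). With a minimum mean of 1 CPM, 1 subunit or regulator was lower at day 1. With Hprt and Tbp scaling, day 12 against day 1 gave 2 higher and 6 lower (2 and 5 targets, 1 subunit or regulator lower), and total counts gave 1 subunit or regulator lower there.

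Over all genes, 1102 higher and 1918 lower at day 1 became 5049 and 5177 with adjusted p alone and 643 and 2721 with Hprt and Tbp. At day 12, 1852 and 2320 became 5608 and 5342 with adjusted p alone, 2982 and 1668 with total counts and 3497 and 1528 with Hprt and Tbp. At day 12 against day 1, 1510 and 1219 became 4908 and 4690, 2248 and 843, and 4438 and 548.

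Signs of log2 fold changes reversed as follows, mostly under another scaling, which moves all genes of a comparison together. With Hprt and Tbp, these were Vhl (-0.13), Egln2 (-0.038), Kdm3a (-0.042), Bhlhe40 (-0.063), Zfp395 (-0.049) at day 1, Arnt (0.051), Vhl (0.055), Bnip3l (0.038), Wsb1 (0.22) at day 12 and Hif3a (0.33), Arnt (0.36), Vhl (0.18), Egln2 (0.36), Bnip3l (0.33), Ak4 (0.24), Kdm3a (0.37), Mxi1 (0.15), Wsb1 (0.39), Ankrd37 (0.24), Tmem45a (0.075) at day 12 against day 1. With total counts, these were Wsb1 (0.0020) at day 1, Wsb1 (0.16) at day 12 and Hif3a (0.090), Arnt (0.12), Egln2 (0.12), Bnip3l (0.091), Ak4 (0.0055), Kdm3a (0.13), Wsb1 (0.16), Ankrd37 (0.0066) at day 12 against day 1. Within the lower run of library numbers, these were Hif3a (0.15), Wsb1 (0.034) at day 12 against day 1. With 1 library left out, the values at day 12 against day 1 ran from -0.33 to 0.13 for Hif3a and from -0.037 to 0.0072 for Wsb1. Stc1 at day 12 against day 1 lost its call without any of 4 libraries (day 1 replicates 3, 4 and 5, day 12 replicate 1), with a lowest size of -0.56. The call was also lost with a covariate for the run of library numbers (-0.56) and within the lower run (-0.53). The counts of the 36 genes and of the targets at day 12 against day 0 stayed within 1.5 times under every alternative run.

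Replicate numbers were not taken to pair the libraries, since neither the labels nor a correlation over 0.1 ties them. Correlations of same-numbered libraries' deviations ran from -0.03 to 0.04, and 8 of 15 correlated best with their own number, where 1 in 5 would with no pairing, a hint from the data and not from the design. A replicate block left the calls of all 36 genes as they were, with 14, 26 and 17 lower. At these depths the limit is Hif3a, read from as few as 15 counts.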

Other observations

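Within groups, targets tended to deviate together. Over the 15 libraries, the median Pearson correlation of deviations from the group mean of log2 CPM was 0.34 across the 300 pairs of the 25 targets whose mean reached 10 CPM, and 0.22 without day 0 replicate 3. The same median was 0.0006 over all pairs of genes at that level and -0.12 over 28 pairs of subunits and regulators. Pairs share the same libraries and their depth, so this is a description of these 15 libraries, without a test.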
